A study of Mus musculus with 30 samples.

Results

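The genes described here are those whose signal was lower in liver than in every other adult mouse tissue profiled. They were taken from the authors' table of 25030 probes, in which each tissue mean is the mean of 2 arrays. The members were selected on the gap of each probe in that table, the lowest mean among the other 14 tissues minus the liver mean. The 80 probes with the largest gap were kept among the 5622 that carry a symbol in the supplementary probe lists. They stand for 79 genes, since Gask1b, a Golgi-associated kinase family protein, is represented by 2 probes. Liver was the lowest of the 15 tissues for 2264 probes of the table (9.05%), of which 537 had a symbol. A gap at least as large as that of the last member was reached by 377 probes of the table, named or not. The probes with a symbol are a partial set, so that genes without one are not described.

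Male C57BL/6 mice were used, labelled as 28 weeks old on all 30 arrays, although the methods text gives another age. Liver was hybridised on 2 arrays, as were lung, heart, kidney, bladder, skin, fat, bone, eyes, brain cortex, cerebellum, stomach, skeletal muscle and both intestines. No treatment is named in the labels. Replicates were from different animals, but for bone and fat the series description counts a single replication. On each two-colour array the tissue RNA was labelled with Cy3, and Cy5 carried the same reference RNA, a pool of mouse cell lines with added embryonic stem cell RNA. Levels are therefore given as log2(Cy3/Cy5), where 0 means the same signal in tissue and reference, and levels of different probes cannot be ranked against each other.

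Hepatocytes fill most of the liver. They are epithelial cells that make plasma proteins, bile acids and urea and that store and release fuel for other organs. Contractile proteins, neuronal receptors and several ion exchangers of gut and kidney epithelium are known as products of other cell types. In whole organs, fewer cells of a type and less RNA per cell cannot be told apart.

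The liver label was checked against 10 hepatocyte genes. Their liver mean was the highest of the 15 tissues for 9 of the 10. The exception was Apoa2, an apolipoprotein, whose liver mean was 3.78 and whose cerebellum mean was 4.28. Cps1, the first enzyme of the urea cycle, stood at 9.06 and 8.87 on the liver arrays, and its mean over the other tissues was 0.43. The share of probes with a Cy3 signal well above background lay between 53.9% and 76.9% over the 30 arrays, and was 53.9% and 61.1% on the liver arrays. The 2 liver arrays had an r of 0.984 across probes. Replicates differed most in fat (r = 0.671), large intestine (0.798) and bone (0.848). Both liver arrays were on the slide that also held both heart arrays, so heart is the single tissue that shares a slide with liver.

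All 80 members passed the filter on low signal, which asked for a detected Cy3 signal in both replicates of 1 or more tissues, and 75 of them met this in all 14 other tissues. Cy3 exceeded background clearly on both liver arrays for 42 members, on 1 array for 12 and on neither for 26. For those 26 the liver level is only an upper bound. Among the 21026 probes past the filter, 24.3% were well above background on neither liver array.

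The members were chosen in the authors' table, and their log2 ratios describe them on a second scale without testing the choice. The liver mean was the lowest of the 15 tissues for 80 of 80 members, a position held by 10.6% of all probes past the filter. The gap in the ratio was at least 1 for 34 members (42.5%). It was smallest, at 0.01 below cerebellum, for 1 Gask1b probe that was well above background on neither liver array. Without cerebellum replicate 2 liver was lowest for 78 members. For 72 members both liver arrays lay below the 28 other arrays, which was true of 4.35% of all probes. The 8 members with some overlap were Arxes2, 1 Gask1b probe, Enkur, 6330403K07Rik, AI854703, Add3, Hnrnpa1 and Msantd3. The median gap was 0.88 in the log2 ratio and 1.72 in the authors' table expressed as log2. The difference between the scales was small where liver had a signal. Members well above background on both liver arrays had a median gap of 1.13 in the ratio and 1.43 in the table. For the members well above background on neither liver array these values were 0.50 and 1.98. The offset of 50 that was added to both channels before the ratio compresses differences of dim spots, and its part in these values was not tested. With 1 array left out at a time the median gap in the ratio lay between 0.57 and 0.89, and the lowest value was reached without large intestine replicate 1.

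**Figure D1:**
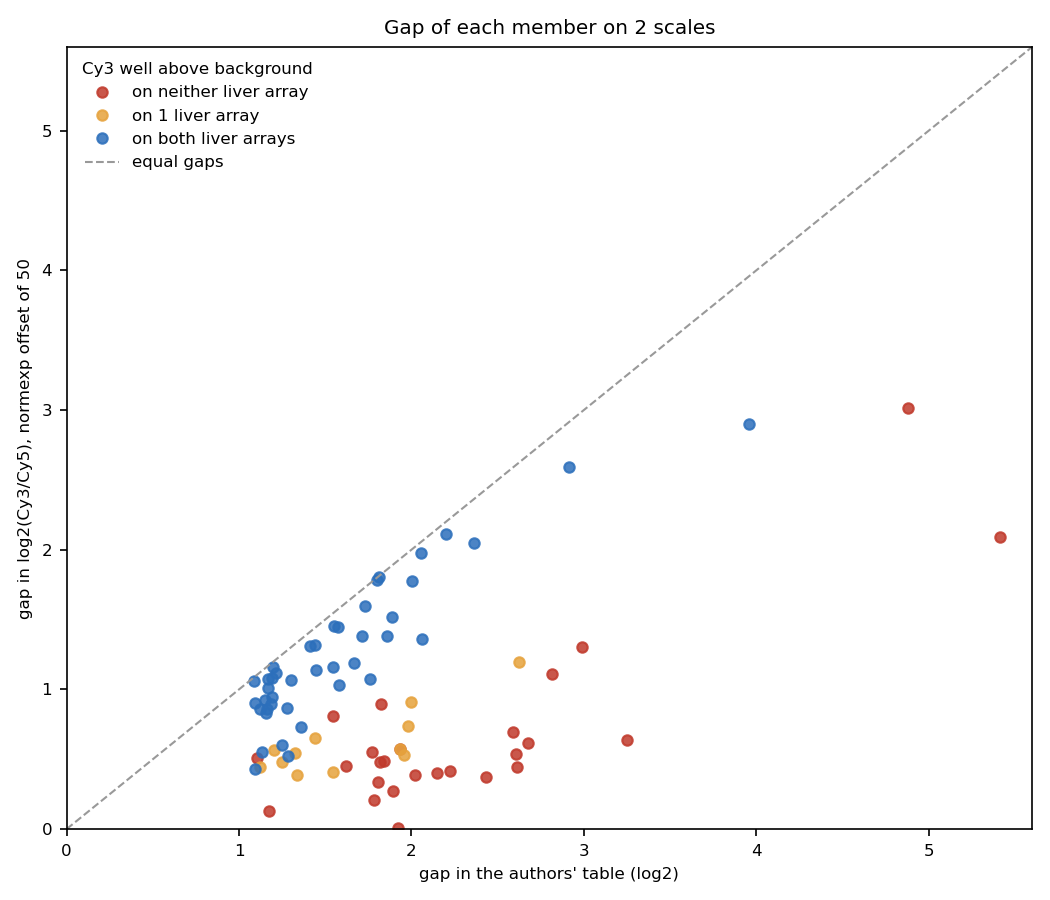
Gap of each of the 80 members in the authors' table (x axis, log2) and in log2(Cy3/Cy5) (y axis), coloured by the number of liver arrays on which Cy3 was well above background. The 26 members well above background on neither liver array lie mostly far under the dashed line of equal gaps (median gap 1.98 against 0.50), and the 42 members measured on both lie nearer to it (1.43 against 1.13).

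Heart and liver shared a slide, and the rule had already placed heart above liver, so their values are a description. The median heart minus liver difference was 2.26 for the members and 0.01 for all probes. The processed Cy5 signal of the reference was lower on the liver arrays than on the others, with a log2 difference of -0.59 (median of the members) and of -0.44 over all probes. The Cy5 mean signal before processing went the other way, with array medians of 236 and 231 in liver and 163 to 235 on the other arrays. The part of the reference channel in the gaps was not tested. Array medians of the authors' table, in log10, were 2.52 on both liver arrays and 2.50 to 2.65 on the others. Among the others only the skeletal muscle arrays had lower medians than liver. The part of this shift in the gaps was not tested either.

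**Figure D2:**
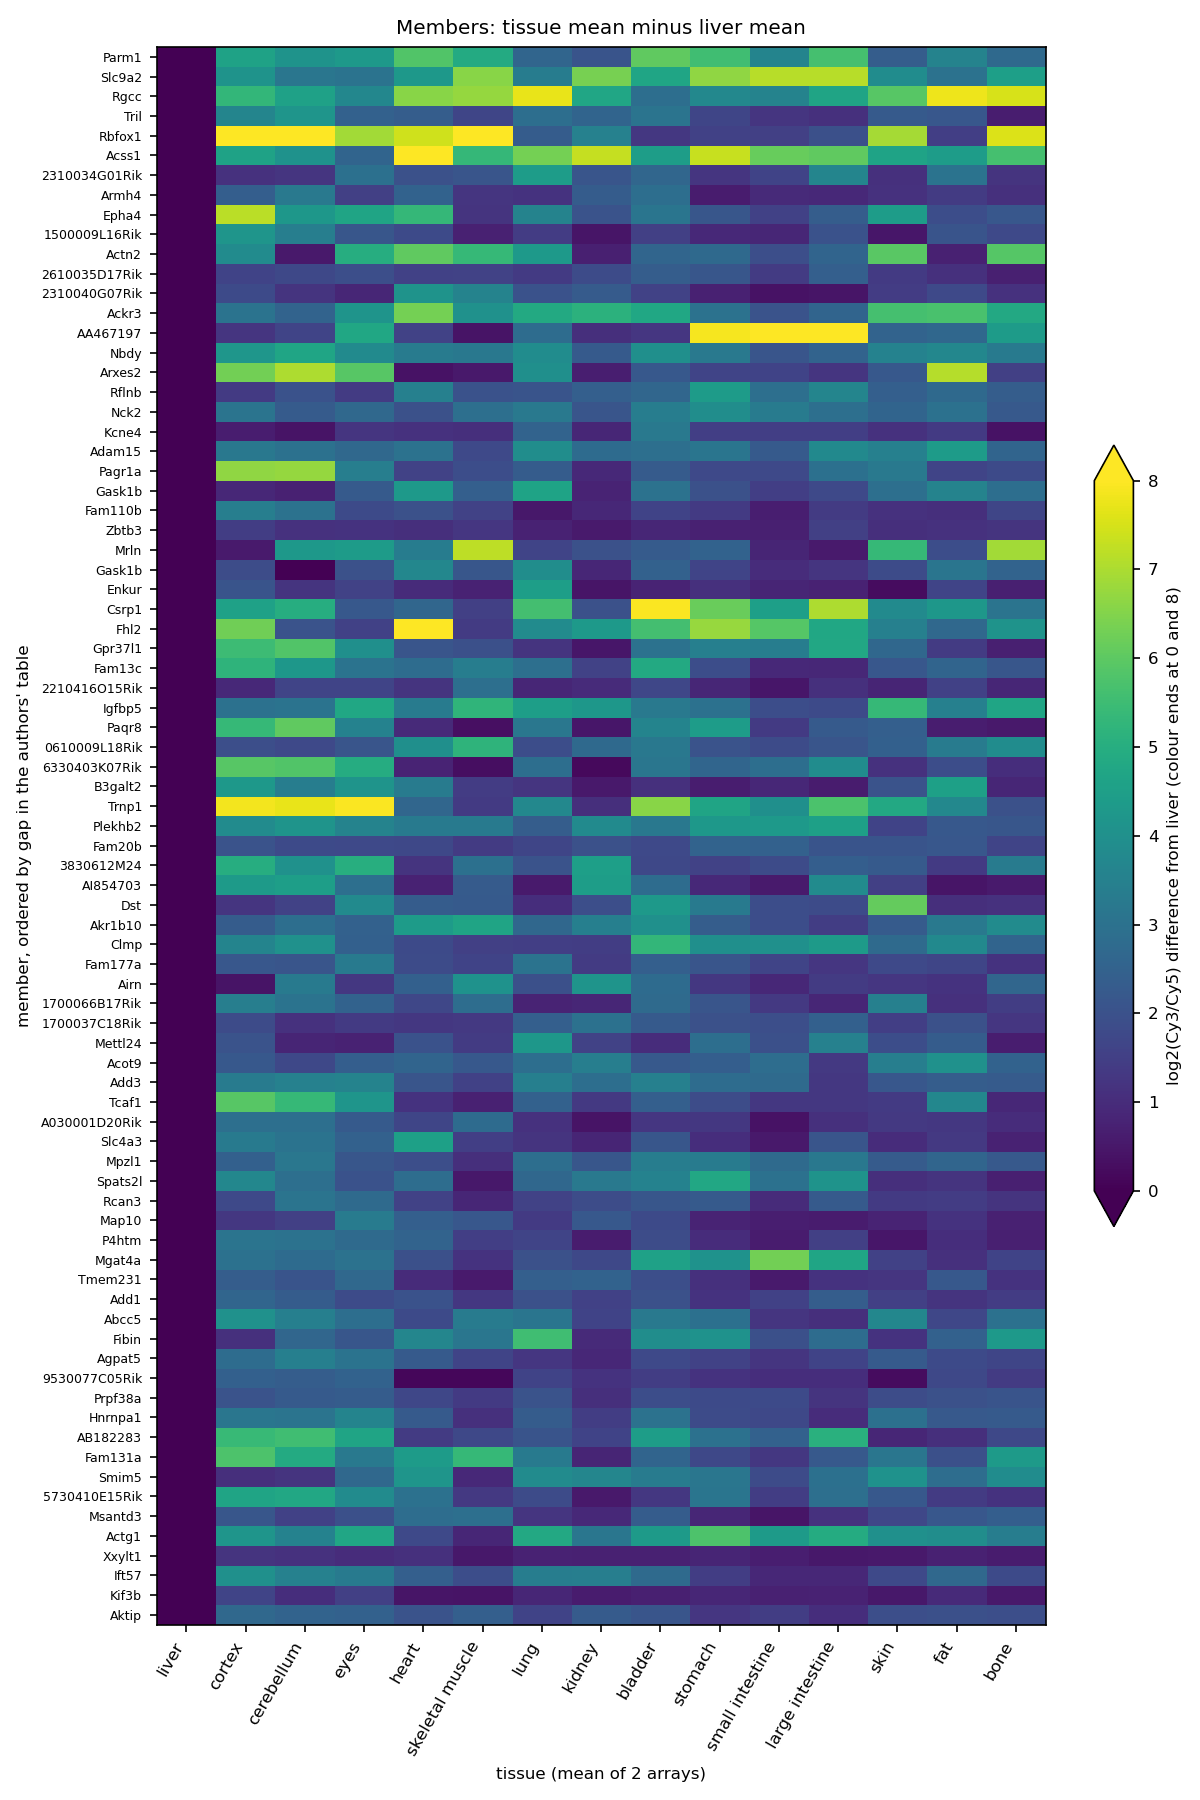
Mean log2(Cy3/Cy5) of each tissue minus that of liver for the 80 members, ordered from the largest gap in the authors' table at the top to the smallest at the bottom (each tissue is the mean of 2 arrays). Every cell outside the liver column is above 0, and the brightest cells of different members fall in different tissues.

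The 3 largest gaps in the authors' table belonged to genes of unlike function. In the log2 ratio the largest gaps were those of Slc9a2 (3.01), Rgcc (2.90) and Acss1 (2.59), and that of Parm1 was 2.09. Parm1 (listed as 9130213B05Rik), a mucin-like membrane protein, had log2 ratios of -1.78 and -1.81 on the liver arrays. On the 28 other arrays the lowest was 0.28, the median 2.38 and the highest 4.27. None of these arrays came near liver. The next lowest tissue was kidney (0.29 ± 0.02, SD, n = 2) and the highest was bladder (4.24 ± 0.04). It was well above background on neither liver array, so the liver values are upper bounds.

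Slc9a2, a sodium-proton exchanger of epithelial membranes, stood at -0.38 and -0.21 in liver, where it was not well above background. The other arrays ranged from 0.24 through a median of 4.35 to 7.11. Its lowest tissue after liver was fat, but the fat arrays were far apart, at 5.20 and 0.24. The highest level was in small intestine (6.84 ± 0.39), followed by large intestine, stomach, skeletal muscle and kidney.

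Rgcc (listed as 1190002H23Rik), a regulator of cell cycle progression, was measured well above background in liver. Its ratios there were -2.82 on both arrays, and the lowest, median and highest of the others were -0.68, 2.30 and 5.46. Bladder was the next lowest tissue at 0.08, with replicates of 0.85 and -0.68. The top was shared by fat (4.99 ± 0.66), lung (4.92) and bone (4.69), whose replicate values overlap.

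**Figure D3:**
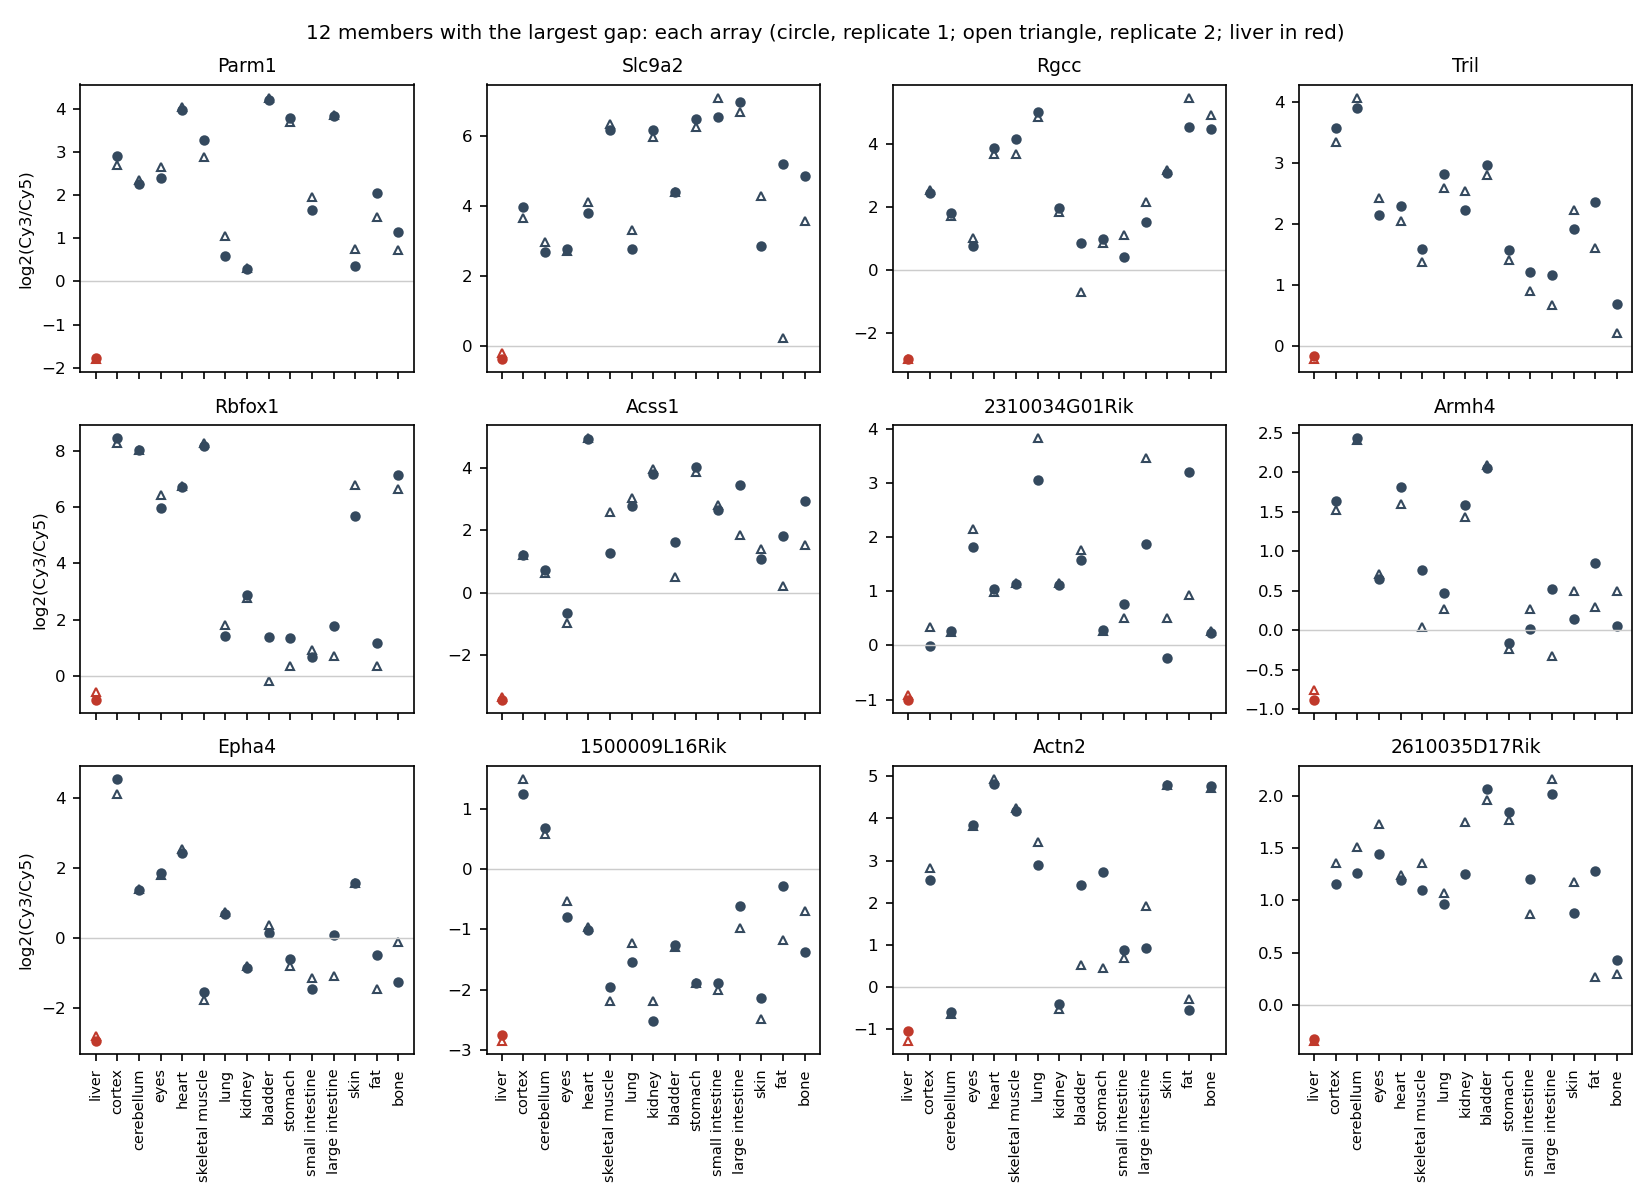
log2(Cy3/Cy5) on each of the 30 arrays for the 12 members with the largest gap in the authors' table, by tissue (filled circle, replicate 1, and open triangle, replicate 2, with liver in red). In each panel both liver points lie below the other 28, and for Slc9a2 the 2 fat arrays stand far apart.

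Several members encode transporters or channel subunits. Slc4a3, an anion exchanger of excitable tissue, was at -1.38 and -0.91 in liver and at 3.41 in heart, its highest tissue. Small intestine was its next lowest tissue at -0.59, and the lowest other array was at -0.85. Kcne4, a regulatory subunit of potassium channels, reached 3.37 in bladder and was well above background on neither liver array. Abcc5, an exporter of cyclic nucleotides and organic anions, was at -2.42 and -2.27 in liver. Its other arrays lay between -1.95 and 1.82, and cortex was highest.

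Receptors and signalling proteins formed another group. Epha4, an ephrin receptor of axon guidance, had liver values of -2.92 and -2.78, of which 1 was well above background. The other arrays had a lowest value of -1.77, a median of 0.11 and a highest of 4.54. Cortex was highest (4.32 ± 0.31) and skeletal muscle was next to liver. Ackr3 (listed as Cxcr7), an atypical receptor that takes up the chemokine CXCL12, was well above background on both liver arrays, at -3.65 and -3.41. The other arrays had a median of 0.72 and a highest value of 2.85, with small intestine lowest (-1.48 ± 0.03) and heart highest (2.78). Heart exceeded liver by 6.31 on the shared slide.

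Nck2, an adaptor that links receptors to actin, showed a narrower profile. Its liver values were -1.97 and -2.08, and its other arrays lay between -0.39 and 1.96 with a median of 0.88. Gpr37l1, an orphan receptor of glia, reached 5.58 in cerebellum and was not well above background in liver. Igfbp5, which binds insulin-like growth factors and belongs to the extracellular matrix list, had unequal liver replicates of -0.43 and 0.83. Both were below its other arrays, which began at 1.53, and skin was highest (5.56). Adam15, a membrane metalloprotease, was at -2.58 and -2.29 in liver and between -0.69 and 2.38 elsewhere. A second Adam15 probe outside the authors' table also had liver lowest, with a gap of 1.24. Tril (listed as 1200009O22Rik), an accessory protein of Toll-like receptors in glia, was highest in cerebellum (3.99) and well above background on neither liver array.

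Cytoskeletal and muscle proteins supplied some of the widest ranges. Fhl2, a LIM-domain protein of the heart, had liver values of -4.94 and -4.39, both well above background. Its other arrays ran from -4.14 through -0.56 to 6.21. Skeletal muscle was next to liver at -3.28, with replicates of -4.14 and -2.43, while heart stood at 6.18 ± 0.04. The heart minus liver difference was 10.84. Csrp1, a LIM protein of smooth muscle, was at -2.91 and -3.04 in liver, with skeletal muscle next at -1.45 and bladder highest at 4.97. Actn2, the sarcomeric alpha-actinin, was well above background on neither liver array and stood at 4.88 in heart and 4.21 in skeletal muscle. Skin (4.79) and bone (4.74) were close to heart. Cerebellum was its lowest tissue after liver, at -0.62. Mrln (listed as 2310015B20Rik), the micropeptide myoregulin of the calcium pump, was at -1.06 and -1.17 in liver and at 6.10 in skeletal muscle. Its signal was well above background on neither liver array, so these liver values are upper bounds.

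Actg1, the cytoplasmic gamma-actin, was at -4.95 and -4.99 in liver. Its other arrays ran from -4.38 through -0.85 to 0.93, with skeletal muscle next (-4.11 ± 0.39) and stomach highest. A second Actg1 probe outside the table did not have liver lowest. Its liver values were -2.77 and -2.48 and its skeletal muscle mean was -2.78. Actins are near-identical in their coding sequence, so the Actg1 values are uncertain, and the part of other actin mRNAs in them was not tested. The adducins Add1 and Add3, which cap and bundle spectrin-linked actin, had liver lowest on both of their probes. One large intestine array of the Add3 member (-1.12) lay below the higher liver array (-0.87). The Add3 member had a gap of 1.31 and its second probe 1.57, the largest among the further probes. The corresponding gaps of Add1 were 1.16 and 1.06. Dst, a cytolinker of the plakin family, was highest in skin (5.16) and at -1.01 and -0.90 in liver. Rflnb (listed as 1500005K14Rik), which binds filamin, was highest in stomach (3.65).

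The start sites of Actg1 and of the uncharacterised gene 0610009L18Rik lie 183 bases apart on opposite strands of chromosome 11. Both genes are members. The probe for 0610009L18Rik was at -0.73 and -0.22 in liver, between 1.16 and 4.81 on the other arrays, and highest in skeletal muscle (4.71), the tissue where Actg1 was lowest after liver. Promoters are shown for these neighbours and for the other members with a CArG box, the element bound by serum response factor, which is known to act on actin and muscle genes. The 250 bases before the start site were read from RefSeq (GRCm38.p6) and are written 5′ to 3′ on the strand of the gene. Capitals mark the CArG box and, near the end of the Fhl2 sequence, TATAAA on the opposite strand.
Actg1, chr11:120348496-120348745, minus strand: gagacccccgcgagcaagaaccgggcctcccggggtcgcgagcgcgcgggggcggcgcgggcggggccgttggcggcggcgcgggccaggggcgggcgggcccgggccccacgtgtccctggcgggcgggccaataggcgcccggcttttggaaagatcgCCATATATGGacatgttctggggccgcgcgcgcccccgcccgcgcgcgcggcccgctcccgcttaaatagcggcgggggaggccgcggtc
0610009L18Rik, chr11:120348428-120348677, plus strand: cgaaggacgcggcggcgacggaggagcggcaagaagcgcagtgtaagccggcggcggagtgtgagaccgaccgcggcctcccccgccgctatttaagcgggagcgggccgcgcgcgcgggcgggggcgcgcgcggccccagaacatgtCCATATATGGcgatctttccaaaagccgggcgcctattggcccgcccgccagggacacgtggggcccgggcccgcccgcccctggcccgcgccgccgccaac
Fhl2, chr1:43196762-43197011, minus strand: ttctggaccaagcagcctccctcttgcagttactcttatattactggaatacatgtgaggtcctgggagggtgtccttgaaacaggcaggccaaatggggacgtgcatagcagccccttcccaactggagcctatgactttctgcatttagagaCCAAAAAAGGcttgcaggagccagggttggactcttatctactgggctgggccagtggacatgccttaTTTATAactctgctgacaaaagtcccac
Trnp1, chr4:133498551-133498800, minus strand: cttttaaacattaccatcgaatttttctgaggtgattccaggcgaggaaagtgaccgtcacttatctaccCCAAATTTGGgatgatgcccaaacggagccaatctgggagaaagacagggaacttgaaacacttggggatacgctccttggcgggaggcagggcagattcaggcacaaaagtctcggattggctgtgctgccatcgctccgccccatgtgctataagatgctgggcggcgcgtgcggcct

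The Actg1 and 0610009L18Rik windows share 182 bases and hold the same CArG box, 81 bases before the Actg1 start and 93 bases before the other start. Promoters were found for 68 of the 79 genes. Of these 68, 4 held a CArG box (5.88%), counting the shared one for both genes. The share was 1.4% of the 27018 mouse promoters and 1.04% of the 4148 promoters of genes with a named probe. TATAAA on either strand was present in 7 member promoters (10.3%, against 13% of all and 8.08% of named genes), CCGGAAG, the core of GABP sites, in 5 (7.35%, 7.05% and 13.7%), GCATGCGC, the core of NRF1 sites, in 3 (4.41%, 2.32% and 4.1%) and AAGATGGC, a YY1 core, in 1 (1.47%, 1.59% and 2.29%). A CpG observed over expected ratio of at least 0.6 with a GC content of at least 50% was met by 28 member promoters (41.2%), by 31.4% of all promoters and by 53.0% of those of named genes. A match describes these letters only, and binding was not measured.

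Metabolic enzymes were led by Acss1, the mitochondrial acetyl-CoA synthetase that uses acetate. It was well above background on both liver arrays, at -3.45 and -3.35, and the other arrays ran from -0.96 through 1.84 to 4.96. Eyes were next to liver (-0.80 ± 0.22) and heart was highest (4.94 ± 0.02), which placed heart 8.34 above liver on their shared slide. A second Acss1 probe, well above background on 1 liver array, also had liver lowest, but by 0.23. Akr1b10 (listed as 2310005E10Rik), an aldo-keto reductase, was at -2.03 and -2.20 in liver and highest in skeletal muscle (2.56). Acot9, a mitochondrial acyl-CoA thioesterase, was highest in fat (0.63), and Agpat5, an acyltransferase of phospholipid synthesis, in cerebellum (0.69). Mgat4a, a Golgi enzyme that branches N-glycans, was at -0.83 and -0.76 in liver, between 0.03 and 5.61 on the other arrays, and highest in small intestine (5.51).

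Regulators of RNA included Rbfox1 (listed as A2bp1), a splicing factor of neurons and muscle. Liver was at -0.85 and -0.54 and not well above background. The other arrays ran from -0.19 through 4.28 to 8.44. Cortex (8.36), skeletal muscle (8.22) and cerebellum (8.02) formed the top, and bladder was the next lowest tissue (0.61, replicates 1.40 and -0.19). Hnrnpa1, a general splicing factor with many processed copies in the genome that such a probe may also detect, was at -4.41 and -4.80 in liver, and 1 other array reached below the higher of these, at -4.59. Prpf38a, a spliceosome factor, varied little between the other tissues, and eyes were highest at -0.87.

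Cilium components were grouped after their values had been seen, so their count is a description. Ift57, a subunit of the intraflagellar transport complex, was at -3.05 and -2.82 in liver and between -2.55 and 1.11 elsewhere. Kif3b, a motor subunit of the same transport, was at -0.64 and -0.92, with a lowest other array of -0.49. Tmem231 (listed as 4932417I16Rik), a protein of the ciliary transition zone, was well above background on 1 liver array. Among 17 cilium genes with a named probe, liver was the lowest tissue for 7, of which 3 were members chosen for that position. The 14 others gave 4 (28.6%, against 10.6% of all probes).

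The other members in the first 20 by gap in the authors' table were less well characterised. Nbdy (listed as 2210013O21Rik), a micropeptide of mRNA decapping bodies, was well above background in liver at -3.90 and -3.82, and its other arrays lay between -1.90 and 0.91. Arxes2 (listed as 2900062L11Rik), a gene of adipocyte differentiation, was at -4.03 and -3.78 in liver and not well above background. Its lowest other array, at -3.79, overlapped liver, while its fat arrays were at 2.41 and 4.02. AA467197, a small mitochondrial protein, was highest in large intestine (7.81). Armh4 (listed as 3632451O06Rik) was highest in cerebellum (2.42), 1500009L16Rik in cortex (1.37), 2310034G01Rik in lung (3.45), 2610035D17Rik in large intestine (2.10) and 2310040G07Rik in heart (4.32). All 5 were well above background on neither liver array.

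At the other end of the rule, the last 5 members were Actg1, Xxylt1 (listed as AI480653), Ift57, Kif3b and Aktip, with gaps between 1.12 and 1.09 in the authors' table as log2. The next 5 named probes, Dnajb3, Mvb12b (listed as 2610528K11Rik), Crispld1, 2810474C18Rik and Drosha (listed as Rnasen), had gaps from 1.08 to 1.05. No step separates both sides of the limit. Aktip, a protein of vesicle transport, was measured on both liver arrays, at -0.17 and -0.04, with the lowest other array at 0.40. When the rule was applied to the log2 ratios, 48 of the 80 probes were again among the first 80 (60%). This number was 75 for the processed signals, 55 for the Cy3 level alone and 45 after median centring. Leaving out a liver array in the authors' table kept 68 (without replicate 1) or 66 (without replicate 2).

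The tissues in which the members were highest were spread over the body. Brain cortex was highest for 15 members and cerebellum for 12, together 33.8% of the members against 18.4% of all probes. Eyes were highest for 9 (11.2%, against 7.64% of all probes), heart for 7 (8.75%, against 7.09%) and lung for 6 (7.5%, against 7.53%), of which heart and lung are near the background. Bladder, fat, skeletal muscle and stomach were highest for 5 members each (6.25%), where all probes gave 4.3%, 4.96%, 10.7% and 4.29%. Bone was highest for none (0 members), although 6.12% of all probes peaked there among the 14 tissues. In the log2 ratio, the next lowest tissue was kidney or skeletal muscle for 14 members each (17.5%, against 7.07% and 11.6% of all probes) and large intestine for 12 (15%, against 11.2%). In the authors' table, from which the rule took the gap, it was kidney for 13 members, large intestine for 13 and skeletal muscle for 10. The median range over the 14 tissues was 3.57 for the members and 2.24 for all probes, from 0.68 for Xxylt1 to 9.47 for Fhl2.

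Differences among the 14 other tissues were then tested, with liver in none of the comparisons. The rule used these tissues through the lowest of them. A comparison is therefore not free of the rule for members in which one of its tissues was that lowest one. In the moderated F-test of limma, 76 of the 80 members differed among the 14 tissues (95%), and so did 89.6% of all 21026 probes, and this share is close to the background. The 4 that did not pass were Zbtb3, Fam20b, Prpf38a and Xxylt1, with adjusted p-values between 0.0581 and 0.104. In the 7 comparisons that follow, a probe was called where the limma adjusted p was below 0.05 and the log2 difference was 1 or more in size. The shares of all probes include probes without a symbol, from which no member was taken. The share over the 5049 named probes past the filter is not given.

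**Figure D4:**
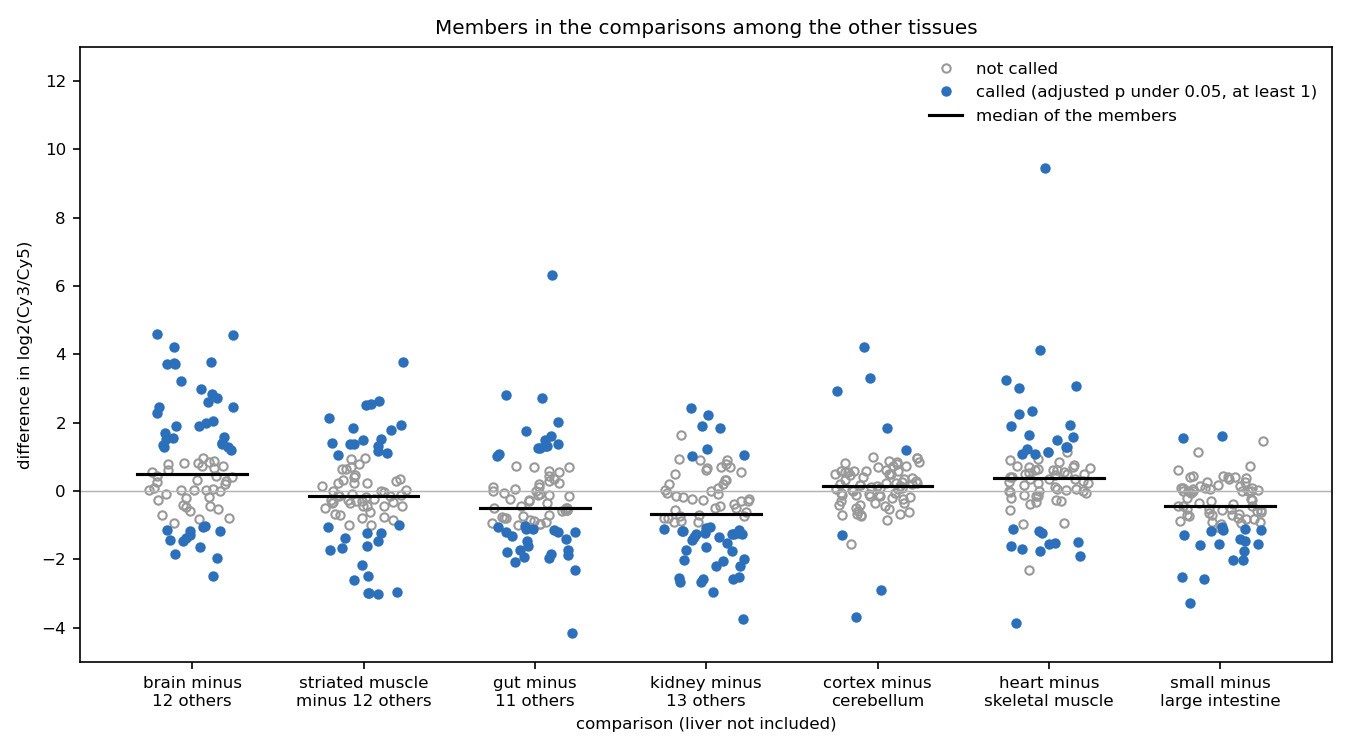
Differences in log2(Cy3/Cy5) of the 80 members in 7 comparisons among the tissues other than liver. Points are members (filled where called by limma, open where not) and bars are medians over the members, which lie above 0 for brain (0.50) and below 0 for gut (-0.50) and kidney (-0.66).

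Brain, taken as cortex and cerebellum averaged, was set against the 12 remaining tissues. Of the members, 42 were called (52.5%, against 30.1% of all probes), 29 higher in brain (36.2%, against 14.7%) and 13 lower (16.2%, against 15.4%). The median difference was 0.50 for the members and -0.09 for all probes. The largest increases in the limma fit were those of Rbfox1 (4.61 ± 0.25, SE, limma adjusted p = 8.33e-12), of Pagr1a (listed as 2900092E17Rik, a cofactor of histone methylation, 4.57 ± 0.17, 4.99e-14) and of Arxes2 (4.23 ± 0.33, 1.38e-09). Pagr1a had liver values of -1.44 and -1.05 and rested between -0.50 and 2.30 in the tissues outside the brain. Lower in brain were AA467197 (fell by 2.49), Smim5 (listed as 2210020M01Rik, a small membrane protein, fell by 1.98) and 1 Gask1b probe (1110032E23Rik, fell by 1.85). Their limma adjusted p-values were 2.77e-10, 4.97e-09 and 1.19e-07. The other Gask1b probe (2210419I08Rik) fell by 1.28 (limma adjusted p = 2.29e-05). The first scan day held 5 of the 12 comparison tissues, with a single array each of cortex and lung. Brain against those 5 gave 39 calls (48.8%, against 28.4% of all probes).

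Striated muscle, heart and skeletal muscle averaged, gave 33 calls (41.2%, against 22% of all probes), with 17 higher members (21.2%, against 9.48% of all probes) and 16 lower (20%, against 12.5%). Rbfox1 (3.77 ± 0.25, adjusted p = 4.65e-10), Actn2 (2.63 ± 0.29, 3.7e-07) and 2310040G07Rik (2.54 ± 0.26, 1.37e-07) rose most in the limma fit. AA467197, Trnp1 (listed as 2300002D11Rik, a nuclear protein of neural progenitors) and Arxes2 were lower by the most, with differences of -3.02, -2.99 and -2.98. Actg1 followed at -2.96 ± 0.15 (limma adjusted p = 1.52e-11).

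Gut, stomach and both intestines averaged, gave 36 calls (45%, against 19% of all probes). It was lower than the 11 other tissues for 22 members (27.5%, against 8.56% of all probes) and higher for 14 (17.5%, against 10.4%). AA467197 rose by 6.31 ± 0.15 (limma adjusted p = 1.01e-16). All 6 gut arrays of this probe lay between 6.50 and 8.05, above its other arrays, which ended at 4.14. Mgat4a (2.80 ± 0.14) and Slc9a2 (2.71 ± 0.42) were next, with adjusted p-values of 7.81e-12 and 1.81e-05. Rbfox1 fell by 4.17, Mrln by 2.32 and Ackr3 by 2.09. The third scan day held 3 of the 11 comparison tissues, with a single array each of large intestine and fat. Gut against those 3 gave 35 calls (43.8%, against 19.7% of all probes).

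Kidney gave 39 calls (48.8%, against 20.5% of all probes). It was lower than the mean of the 13 other tissues for 32 members (40.0%, against 10.4% of all probes) and higher for 7 (8.75%, against 10.1%). In the authors' table kidney was the lowest tissue after liver for 13 members, whose kidney values the rule had used. For those members the comparison is a description. The median difference was -0.66 for the members and -0.11 for all probes. Trnp1 fell by 3.76 ± 0.26 (SE, limma adjusted p = 1.31e-09), Actn2 by 2.96 ± 0.40 (6.55e-06) and AA467197 by 2.68 ± 0.23 (2.8e-08). The increases were led by AI854703 (2.44 ± 0.32, limma adjusted p = 5.79e-06), Airn (listed as 2810434M15Rik, an antisense transcript of an imprinted locus, 2.21 ± 0.19, 3.1e-08) and Acss1 (1.91 ± 0.40, 0.000759). A second probe listed under an older name of Airn did not have liver lowest, and was well above background on neither liver array. Kidney against the 6 comparison tissues of the first scan day, with a single array each of cortex and lung, gave 43 calls (53.8%, against 24.6% of all probes).

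Pairs of related organs were compared as well. Between cortex and cerebellum 8 members were called (10%, against 5.46% of all probes), 5 higher in cortex (6.25%, against 3.2% of all probes) and 3 lower (3.75%, against 2.27%). Fhl2 was higher in cortex by 4.20 ± 0.50 (SE, limma adjusted p = 1.11e-05) and Actn2 by 3.30 ± 0.54 (0.00036). Mrln was lower in cortex by the difference of -3.69 ± 0.37 (1.49e-06) and Airn by that of -2.90 ± 0.26 (3.49e-07). The Mrln arrays were at -0.64 and -0.41 in cortex and at 3.13 and 3.19 in cerebellum.

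Between heart and skeletal muscle 29 members were called (36.2%, against 15.2% of all probes). Of these 18 were higher in heart (22.5%, against 9.18% of all probes) and 11 in skeletal muscle (13.8%, against 6.02%). Fhl2 was higher in heart by 9.47 ± 0.50 (SE, limma adjusted p = 1.61e-10) and Epha4 by 4.14 ± 0.35 (6.1e-08). The Epha4 arrays were at 2.43 and 2.53 in heart and at -1.54 and -1.77 in skeletal muscle. Mrln and Igfbp5 were higher in skeletal muscle, with heart minus muscle differences of -3.87 ± 0.37 and -1.90 ± 0.45 (limma adjusted p = 3.64e-07 and 0.00388). These tissues were on different slides and scan days, so tissue and scan day cannot be told apart in this pair. With slide as a random block 19 members were called instead of 29 (23.8%, against 10.6% of all probes).

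Between small and large intestine 19 members were called (23.8%, against 11.4% of all probes). Of these 17 were lower in small intestine (21.2%, against 5.04% of all probes) and 2 were higher (2.5%, against 6.33%). The 2 higher were Mgat4a (1.61 ± 0.31, limma adjusted p = 0.00151) and Acot9 (1.55 ± 0.43, 0.0176). AI854703 (-3.28 ± 0.44, 4.38e-05) and AB182283 (-2.59 ± 0.37, 8.44e-05) were lower by the most. The large intestine arrays differed from each other, and the count moved with the setting. It was 29 without large intestine replicate 1 (36.2%, against 27.3% of all probes), 12 without small intestine replicate 1 (15%, against 6.14%), 11 after median centring (13.8%, against 6.33%) and 6 with weights per tissue (7.5%, against 3.37%). With only the 4 arrays of the pair it was 0, as for all probes, and limma gave 16 members an unadjusted p under 0.05 (20%, against 10.2% of all probes).

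The lists of related genes place neighbours of the members against liver. Values are the mean of the 14 other tissues minus liver, whose median over all probes was 0.10. Such a value also rises where a few tissues are high, so it does not show that liver is lowest. The medians were 1.65 for 13 fibroblast and smooth muscle genes, 1.58 for 11 striated muscle genes, 1.18 for 9 neuron genes and 0.95 for 23 extracellular matrix genes. Without Csrp1, Actn2 and Igfbp5, the members among them, the fibroblast, striated muscle and matrix medians were 1.33, 1.58 and 0.95. Without these members, liver was the lowest tissue for 2 of 12 fibroblast genes (Aebp1 and Lmod1, 16.7%), 0 of 10 striated muscle genes, 0 of 9 neuron genes and 3 of 22 matrix genes (Aebp1, Sulf1 and Col19a1, 13.6%), against 10.6% of all probes. For the neuron list, 6 of 9 probes were well above background on neither liver array. Kidney was called lower than its 13 comparison tissues for 10 of 11 striated muscle genes and 4 of 9 neuron genes (10.4% of all probes). Gut was called lower than its 11 comparison tissues for 8 striated muscle genes and 1 neuron gene (8.56% of all probes).

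Among 41 actin and tubulin cytoskeleton genes liver was lowest for 8 and highest for 3, and the median was 0.58. Of the 8, Actg1, Add1, Add3 and Dst are members chosen for that position. The 37 non-members gave 4 (10.8%), close to the 10.6% of all probes. They were Afap1, Abi2, Actr1a and Capza1, which encode actin-related or actin-regulating proteins, with gaps from 0.15 to 0.99. Of 12 genes of 14-3-3 and phosphatase signalling 5 had liver lowest (41.7%), none of them a member (0 members), and the phosphatase subunit Ppp2cb had the largest gap, 0.73. Liver was lowest for 3 of 12 septins, 2 of 8 endothelial genes, 1 of 10 isoenzymes known from tissues outside the liver and 1 of 10 proton pump and membrane transport genes, with medians of 0.61, 0.61, 0.10 and 0.57. It was the highest tissue for 2 of the 10 isoenzymes and 1 of the 12 septins, and for 0 genes of the endothelial and proton pump lists. It was lowest for 0 of 13 leukocyte genes (median 0.06) and for 0 of 54 genes of oxidative phosphorylation (median -0.0042).

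**Figure D5:**
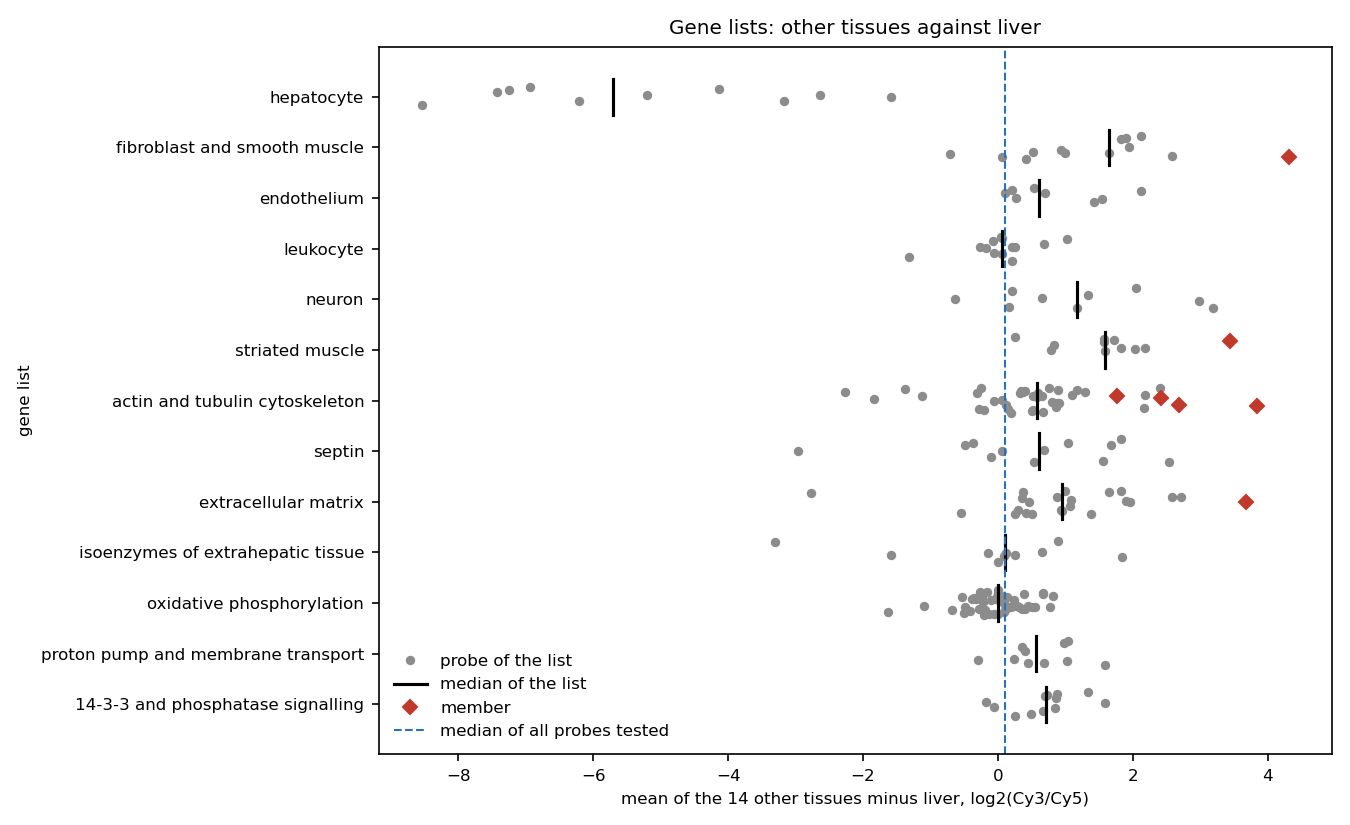
Mean of the 14 other tissues minus liver in log2(Cy3/Cy5) for the probes of 13 gene lists (grey points), with members as red diamonds, list medians as black bars and the median of all probes (0.10) as a dashed line. Hepatocyte genes lie at negative values, oxidative phosphorylation genes around 0, and the medians of the fibroblast, striated muscle and neuron lists at positive values (1.65, 1.58 and 1.18).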

How the data were processed

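RNA of 15 tissues was measured on 30 two-colour Agilent arrays, with Cy3 for tissue and Cy5 for the common reference and no dye swap. The spot intensities, local backgrounds and detection flags were deposited by the authors as written by Agilent Feature Extraction 9.5.1.1. The table deposited by the authors holds log10 values, which matched the processed Cy3 signal less the deviation of the Cy5 signal (slopes 0.9979 and -0.9974 over 11667 bright probes, R2 0.9999). It was used to choose the members, and expressed as log2 where stated.

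Mean signals were background-corrected by normexp (offset 50), normalized by loess within each array and averaged by probe, after 475 spots with outlier flags had been set aside. Each array held 43451 spots. Linear models of limma 3.58.1 (R 4.3.3) covered 21026 probes (84% of the table) with all 15 tissues as groups (15 residual degrees of freedom). Simulated data were used for cortex against cerebellum alone, with the same spread in all tissues for each probe. They leave the other comparisons and the F-test unchecked. P-values were adjusted over all fitted probes by the Benjamini-Hochberg method, separately for the F-test and 7 comparisons. With 2 arrays a tissue, their number limits the precision, and the bone and fat arrays may measure technical spread.

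The members and lists were chosen with earlier results of these data known. Named genes were the first 20 and last 5 members, the 5 probes just outside, members on a list, the called members with the largest differences in each direction (3 for organ groups, 2 for pairs), and the further probes with the largest and smallest gap. Other members were named after their values were seen, as examples of a role, and so was the cilium list. The other lists were hepatocyte, fibroblast and smooth muscle, endothelium, leukocyte, neuron, striated muscle, actin and tubulin cytoskeleton, septin, extracellular matrix, isoenzymes, oxidative phosphorylation, proton pump and 14-3-3 genes. Names came from the probe lists and were updated through RefSeq, in which 43 member symbols were current, 33 were synonyms and 4 were not found. Alternatives covered the signal used, centring, filters, slide, scan day, replicate number, array weights and arrays left out.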

Additional observations from a re-analysis of the deposited data

How the results depend on the processing

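Of 451 values recomputed under the alternatives, 441 kept their direction and stayed within the limits set for a move, 10 moved and 0 reversed. The median gap was 1.72 in the authors' table and in the processed signals of the scanner software, 1.12 on the arrays of the first scan day alone (chosen after seeing the data, with 7 of the 14 other tissues, so that the lowest of them is taken over fewer tissues), and between 0.57 (without large intestine replicate 1) and 0.89 with 1 array left out. Between small and large intestine 19 members were called, and this count was 11 after median centring, 6 with array weights per tissue, 0 by limma when no more than the 4 arrays of both intestines were fitted (16 at an unadjusted p under 0.05, or 20% against 10.2% of all probes; the same share was 60% against 31.8% for cortex and cerebellum and 77.5% against 54% for heart and skeletal muscle), and 12 (without small intestine replicate 1) to 29 (without large intestine replicate 1) with 1 array left out. Between heart and skeletal muscle 19 members were called with slide as a random block, against 29. The cause of these moves was not tested. The replicate numbers did not pair the arrays: over 105 pairs of tissues the correlation of deviations had a median of 0.048 (-0.248 to 0.343), and 32 pairs exceeded 0.1. With the replicate number as a block the counts were 8, 30 and 20 for the pairs of organs (cortex, heart and intestine), 42 for brain, 33 for striated muscle, 36 for gut, 39 for kidney and 78 for the F-test. With slide as a fixed block only the pairs cortex and cerebellum (9) and small and large intestine (15) could be fitted. Of the alternatives, scan day as a block, the single scan days and the exclusion of fat and large intestine were added after seeing the data, and the single scan days compare fewer tissues. For the 26 members well above background on neither liver array, signal over background limits the liver value to an upper bound.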
